A study of Bos taurus with 11 samples.

Results

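Mitochondrial complex I (NADH:ubiquinone oxidoreductase) is the first and largest enzyme of the respiratory chain. It takes electrons from NADH in the matrix arm, passes them through flavin and iron-sulfur clusters to ubiquinone, and pumps protons across the inner membrane in the membrane arm. Its core subunits do the chemistry and its accessory subunits surround, stabilise and help to assemble them. Most subunits are encoded in the nucleus under NDUF symbols, and the membrane core is encoded in mitochondrial DNA. The genes described here are the 36 nuclear-encoded subunit genes with a probe of that name on the array, out of 15605 named genes. They were chosen by name and role, not by signal, and 73 of the array's 43653 probes carry their names.

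Peripheral blood mononuclear cells (PBMCs, a mixture of lymphocytes and monocytes) of 2 breeds of female cattle were hybridised to 1-colour Agilent bovine arrays. Ladakhi cattle, native to the high-altitude Ladakh region, gave 5 arrays. Sahiwal cattle from a low-altitude arid or semi-arid region, whose cells are labelled as basal, gave 6 arrays. The labels state no agent, age or altitude figure, and they number the samples within a breed without saying that each is a separate animal, so p-values measure the spread between these samples.

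Breed coincided with the scanner, the version of the image software and the slide, and in every difference below these cannot be told apart from breed. Between 4243 and 6608 of 43803 spots (9.69% to 15.1%) were well above background on the Ladakhi arrays, against 17517 to 20574 (40.0% to 47.0%) on the Sahiwal arrays. Levels are log2 processed signals relative to the 75th percentile, on the same array, of the 2705 probes well above background on all 11 arrays. A difference is the Ladakhi minus the Sahiwal mean level, and a gene is described by its brightest probe unless another is named. Levels of different probes are not compared with each other. A gene counts as measured when that probe was well above background on 4 or more of the Ladakhi arrays and on 4 or more of the Sahiwal arrays. "Rose" and "fell" are used for adjusted p under 0.05 in limma with Benjamini-Hochberg adjustment over all 17866 probes tested, with Ladakhi set against Sahiwal. Of those probes, 41.8% were called (24.5% higher and 17.3% lower in Ladakhi).

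The cells carried lymphocyte and monocyte markers in both breeds. The summed signals below were not tested, and the breeds overlapped in each of them except the T cell sum, where they nearly met. Summed relative signal of 9 T cell markers ran from 4.41 to 7.71 on the Ladakhi arrays and from 1.84 to 4.40 on the Sahiwal arrays. CD247 was 0.97 higher (limma adjusted p = 0.0351). CD3D (1.09, adjusted p = 0.190), LCK (0.76, adjusted p = 0.0871) and CD3G (0.28, adjusted p = 0.511) did not pass. CD2 had a difference of 2.46, with a Sahiwal mean of -5.22, below the mean detection floor of the Ladakhi arrays (-3.61). CD28 was above background on no array of either breed and CD6 on no Ladakhi array. The 6 B cell markers summed to 2.32 to 3.03 and to 1.24 to 2.59, with CD79B and PAX5 above background on no Ladakhi array. Summed signal of 8 monocyte markers ran from 0.935 to 4.30 against 3.20 to 8.54. Of the 2 measured in both breeds, LYZ was 1.80 lower (difference -1.80) and CSF1R had a difference of -0.07 (limma adjusted p = 0.892). CD68, VCAN and CD163 were above background on no Ladakhi array. The 7 neutrophil markers summed to 0.0762 to 0.275 and to 0.0525 to 1.91, with 5 of the 7 above background on no Ladakhi array. The part of these cell types in the differences below was not tested, and in such a mixture fewer cells of a type cannot be told apart from less RNA per cell.

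Probe sequences are shown because several subunit genes gave different answers with different probes. The part of sequence in this disagreement was not tested. The first set shows probes of 60 bases that read coding sequence, recognised as such from the encoded protein rather than from an annotation. The NDUFA13 probe is shown because it differed from its partner, and the NDUFS7 and NDUFA3 probes, picked after their values were seen, to set beside their genes' brightest probes. Positions are in build HGSC Btau_3.1, as the scanner files give them, at chr7:3724691-3724750 (minus strand), chr7:42836317-42836835 (plus strand, a span longer than the probe) and chr18:63531868-63531927 (plus strand).
NDUFA13: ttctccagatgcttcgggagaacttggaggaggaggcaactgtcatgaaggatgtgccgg
NDUFS7: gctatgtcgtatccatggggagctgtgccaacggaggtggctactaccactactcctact
NDUFA3: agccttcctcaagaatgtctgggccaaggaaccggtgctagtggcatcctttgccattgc

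The second set shows windows of 30 bases, also picked after values were seen, in which overlapping probes of 1 gene differ. Capitals mark the differing bases, counted from 1 at the 5′ end of the window, and each change is written from the first probe to the second. The NDUFS3 pair overlaps over 52 bases and differs at A2G and G28T, the NDUFA4 pair overlaps over 59 bases and differs at T1C, A14C and T30C, and the NDUFB4 pair overlaps over 44 bases and differs at C8A and G23A.
NDUFS3 probe A_73_P116716: aAaaagcaccttacctataattgagtgGcc
NDUFS3 probe A_73_102517: aGaaagcaccttacctataattgagtgTcc
NDUFA4 probe A_73_112088: TggtggggtttacActgatgaataaatagT
NDUFA4 probe A_73_P118486: CggtggggtttacCctgatgaataaatagC
NDUFB4 probe A_73_P040766: acatctcCtattaagtctgacaGtgatgtc
NDUFB4 probe A_73_P485243: acatctcAtattaagtctgacaAtgatgtc

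Of the 36 genes, 26 (72.2%) were measured in both breeds, against 16.5% of all named genes. Another 9 were above background on 1 to 3 Ladakhi arrays, and NDUFS6, an accessory subunit of the matrix arm, on none. No probe of the set was saturated.

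Complex I genes did not move as a block between the breeds. Among the 26 measured genes, NDUFA7, NDUFA3, NDUFA4 and NDUFS7 rose in Ladakhi, NDUFB10, NDUFB8, NDUFA13 and NDUFAB1 fell, and 18 did not pass the test. These 8 genes are 30.8% of the measured ones, and 31.8% of the 2569 named genes measured in both breeds were called (18.1% higher and 13.7% lower), so the share called is near the background. The median difference was -0.15 against 0.01 over all measured genes. In 8 genes no Ladakhi sample overlapped a Sahiwal sample (6 above, 2 below), against 21.3% of all measured genes (12.3% above, 9.03% below).

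The split between higher and lower depended on the scaling. It was 8 higher and 1 lower under quantile normalization or cyclic loess and 8 higher and 3 lower with normexp background correction. These move the median of all measured genes by 0.19, 0.44 and 0.29. Taken relative to the median of all measured probes the splits were 8 and 3, 4 and 3, and 6 and 7. The number that fell was 2 without Sahiwal sample 1, 4 or 5. NDUFA7, NDUFA3, NDUFA4, NDUFS7 and NDUFB10 passed the test in the same direction under every alternative run for them.

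**Figure D1:**
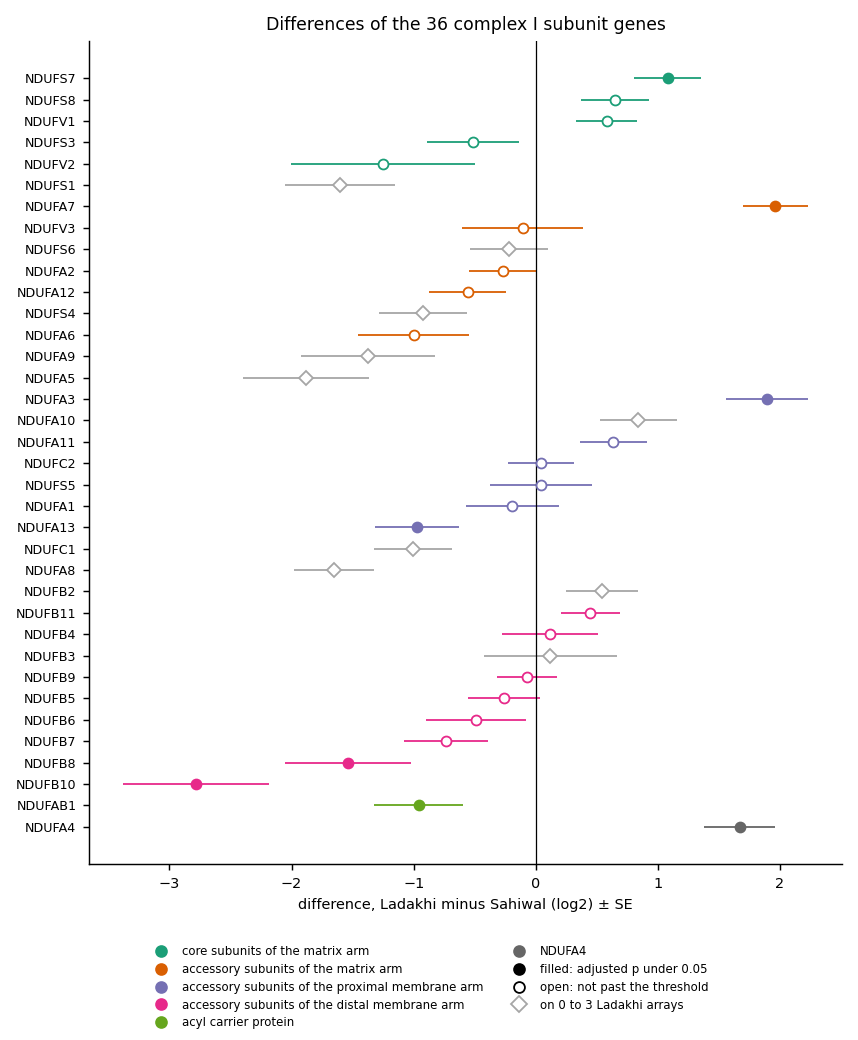
Difference between breeds (Ladakhi minus Sahiwal, log2, horizontal axis) with its standard error for each of the 36 genes, by brightest probe and coloured by place in the enzyme; filled points have an adjusted p under 0.05 and grey diamonds were above background on 0 to 3 Ladakhi arrays. The 4 genes that rose lie between 1.08 and 1.96, and the 4 that fell between -2.78 and -0.96.

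The core of the matrix arm holds the cofactors of electron transfer, and 5 of its 6 genes on the list were measured, with 1 higher, none lower and a median difference of 0.58. NDUFS7 carries the last iron-sulfur cluster before ubiquinone. Its levels in the 5 Ladakhi samples, in sample order, were -0.68, -0.55, -0.79, -0.23 and -1.54, and the 6 Sahiwal samples ran from -2.15 through a median of -1.80 to -1.59. The breeds did not overlap, although the lowest Ladakhi sample lay just above the highest Sahiwal sample. NDUFS7 rose by 1.08 (SE 0.28, 2.11-fold, limma adjusted p = 0.00721). A second probe rose by 0.83 (adjusted p = 0.0180), without overlap. Its Sahiwal mean of -3.42 lay below the detection floors of Ladakhi samples 1, 2 and 4 (-3.28, -3.03 and -3.41). Being measured thus favoured a higher Ladakhi level. The probe printed above had a difference of 0.88, and its Sahiwal mean of -3.66 lay below the mean detection floor of the Ladakhi arrays (-3.61), so that it could be measured only if higher.

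NDUFV1, which binds NADH and the flavin, had a difference of 0.58 (SE 0.25, adjusted p = 0.0761), and its breeds did not overlap. NDUFS8, which carries a pair of iron-sulfur clusters, had a difference of 0.65 (SE 0.28, adjusted p = 0.0733). Neither passed the test here, and both did under quantile normalization, cyclic loess, normexp and with slide as a random block. Relative to all measured probes, neither passed under cyclic loess, and under normexp NDUFS8 passed and NDUFV1 did not. Slides are nested in breed, so the slide block cannot separate slide from breed. Its fitted correlation was negative (-0.11), and with it 22.5% of all measured genes were called higher and 19.3% lower.

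NDUFV2, an iron-sulfur subunit beside NDUFV1, had levels of -0.80, -0.62, -0.62, -5.73 and -0.64 in the Ladakhi samples and -0.71 to -0.23 (median -0.41) in the Sahiwal samples. Ladakhi sample 4 was not well above background, and the other 4 were close together. The difference of -1.25 (SE 0.76) had an adjusted p of 0.198. A second NDUFV2 probe was above background in that same sample, at -2.82, where the other Ladakhi samples ran from -5.34 to -2.34.

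NDUFS3, a core subunit of the connecting part of the arm, gave 2 patterns with the overlapping probes printed above. The brighter probe, A_73_P116716, had -2.47, -2.11, -1.95, -4.12 and -1.69 in the Ladakhi samples. The other, A_73_102517, had -5.59, -1.62, -6.57, -2.51 and -3.74 in the same samples. The low samples were not the same ones, since sample 4 was lowest with the first probe and samples 1 and 3 with the second. In the Sahiwal samples the probes ran from -2.12 to -1.88 and from -2.37 to -1.87. The gap between the probes had an SD of 2.57 over the Ladakhi and 0.201 over the Sahiwal samples. The breed difference was -0.51 (adjusted p = 0.292) with the first probe and -1.97 (adjusted p = 0.0352) with the second, which was above background on 3 Ladakhi arrays.

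Accessory subunits of the matrix arm had 5 of 9 genes measured, with 1 higher, none lower and a median of -0.27. NDUFA7, a small accessory subunit, had the largest positive difference of the set. Its Ladakhi levels were 1.48, 0.68, 1.12, 0.84 and 1.53, and the Sahiwal levels ran from -1.19 through -0.77 to -0.44. Every Ladakhi sample lay above every Sahiwal sample. NDUFA7 rose by 1.96 (SE 0.27, 3.90-fold, limma adjusted p = 0.000175). The unscaled processed signals ran the other way, from 1412 to 3985 on the Ladakhi arrays and from 4294 to 8670 on the Sahiwal arrays. They also did in NDUFS7 (410 to 1059 against 1943 to 5032) and NDUFA3 (852 to 1674 against 2450 to 4039). In NDUFA4 they ran from 1521 to 3657 against 3615 to 11256. The direction of these rises is thus that of the level relative to each array's other probes.

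The other 4 measured genes of this group did not pass. NDUFA6, a subunit of the LYR family, had a difference of -0.999 (adjusted p = 0.0907), NDUFA12 -0.56, NDUFA2 -0.27 and NDUFV3 -0.11. A second NDUFA12 probe, above background on 2 Ladakhi arrays, had -1.56 (limma adjusted p = 0.0138), and -0.53 (adjusted p = 0.108) after raising to the floor. The NDUFV3 Sahiwal mean of -3.44 lay below the detection floors of Ladakhi samples 1, 2 and 4, so being measured favoured a higher Ladakhi level.

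Accessory subunits of the proximal membrane arm had 6 of 9 genes measured, with 1 higher, 1 lower and a median of 0.04. NDUFA3 is a small single-pass membrane subunit. Its Ladakhi levels were -0.16, 0.71, -1.11, 0.51 and 0.46, and the Sahiwal levels ran from -2.08 through -1.86 to -1.36. The breeds did not overlap. NDUFA3 rose by 1.89 (SE 0.33, 3.72-fold, limma adjusted p = 0.000812). This probe lies at chr5:80801688-80801747, while the gene's other 3 probes lie on chromosome 18. The printed coding probe had a difference of 2.13 (SE 0.32), and with a Sahiwal mean of -4.11 it too could be measured only if higher. The remaining measured probe had a difference of 0.19 (SE 0.67, adjusted p = 0.838), with Ladakhi sample 1 at -5.59 and the other Ladakhi samples between -1.94 and -0.59.

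NDUFA13, also known as GRIM-19, was the one gene whose 2 measured probes had opposite signs with 1 of them called. With the brighter probe, at chr7:3724298-3724351, the Ladakhi levels were 0.06, -0.19, -0.95, -1.88 and -0.39 and the Sahiwal levels ran from 0.01 through 0.25 to 0.63. The breeds overlapped, and Ladakhi sample 4 was lowest. NDUFA13 fell by 0.97 with this probe (difference -0.97, SE 0.34, limma adjusted p = 0.0348). With the printed probe the Ladakhi levels were -1.46, -1.38, -1.87, -1.15 and -1.02 and the Sahiwal levels ran from -1.94 to -1.51. That difference was 0.32 (SE 0.25, adjusted p = 0.326), and Ladakhi sample 4 was not low.

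The call on NDUFA13 ended with the mean of its probes (-0.33), cyclic loess (-0.53), normexp (-0.49), quantile normalization (-0.76), and without Ladakhi sample 3 or 4 or Sahiwal sample 1, 4 or 5 (-0.96 to -0.67). Relative to all measured probes it held under cyclic loess (-0.94), normexp (-0.77) and quantile normalization (-0.93). NDUFA11 had a difference of 0.63 (adjusted p = 0.0773). NDUFA1, NDUFC2 and NDUFS5 lay between -0.19 and 0.04, and the second measured NDUFA1 probe was at 0.40. A second NDUFC2 probe, above background on 3 Ladakhi arrays, had a difference of -1.50 (SE 0.31, adjusted p = 0.00187) without overlap, and -1.12 (adjusted p = 0.00066) after raising to the floor.

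**Figure D2:**
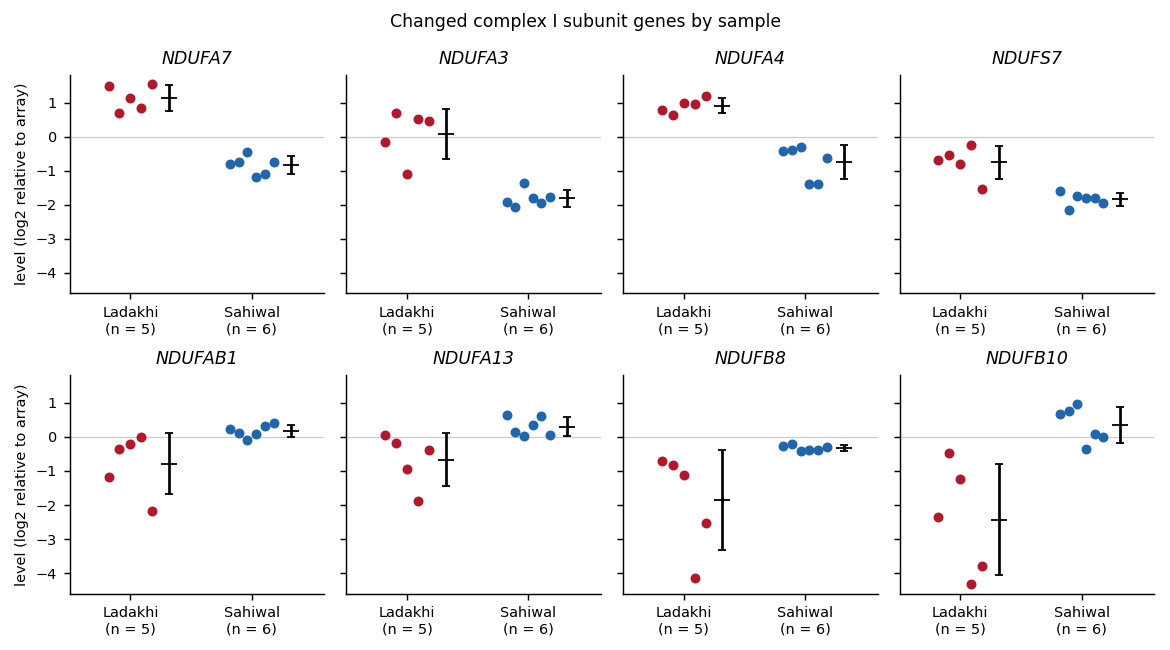
Level of each of the 8 changed genes (log2 relative to the array, vertical axis) in 5 Ladakhi (red) and 6 Sahiwal (blue) samples, with the mean and SD beside the points. The 4 genes that rose have no overlap between breeds, whereas NDUFAB1 and NDUFA13 overlap and the Ladakhi samples of NDUFB8 and NDUFB10 are spread over several log2 units.

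The distal membrane arm had 8 of its 10 accessory genes measured, with none higher, 2 lower and a median of -0.37. NDUFB10 is an intermembrane-space subunit with conserved cysteines. Its Ladakhi levels were -2.36, -0.46, -1.22, -4.31 and -3.79 and the Sahiwal levels ran from -0.37 through 0.38 to 0.95. No Ladakhi sample overlapped a Sahiwal one, although sample 2 lay just below the lowest Sahiwal sample, and sample 4 was not well above background. NDUFB10 fell by 2.78 (difference -2.78, SE 0.60, 6.88-fold, limma adjusted p = 0.00257), the largest change of the set. NDUFB10, NDUFB8 and NDUFAB1 each have 1 probe on the array, so their falls could not be set beside a second probe.

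NDUFB8, a membrane subunit often used as an immunoblot marker of assembled complex I, had Ladakhi levels of -0.70, -0.83, -1.13, -4.15 and -2.52. The Sahiwal levels ran from -0.42 through -0.34 to -0.22. The breeds did not overlap, and Ladakhi samples 4 (not well above background) and 5 lay far below the other 3. NDUFB8 fell by 1.54 (difference -1.54, SE 0.52, 2.90-fold, adjusted p = 0.0279). Without Ladakhi sample 4 the difference was -0.97 (adjusted p = 0.0431), and without sample 5 it was -1.37 and no longer passed (adjusted p = 0.0647). The call also ended under cyclic loess (-1.09) and quantile normalization (-1.30), and held with both taken relative to all measured probes (-1.50 and -1.47).

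The other 6 measured genes of the distal arm lay between -0.74 (NDUFB7) and 0.45 (NDUFB11) and did not pass. The breeds did not overlap in NDUFB11. NDUFB4 had a difference of 0.12 with its brightest probe, and a probe sharing 46 identical bases with it, above background on 3 Ladakhi arrays, had -1.21. The printed A_73_P485243 variant was above background on 0 Ladakhi and 6 Sahiwal arrays. Its Sahiwal mean of -4.26 lay below the mean Ladakhi floor of -3.61, so an equal Ladakhi level could go undetected.

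NDUFAB1, the mitochondrial acyl carrier protein, is part of complex I and of mitochondrial fatty acid synthesis. Its Ladakhi levels were -1.17, -0.37, -0.20, -0.01 and -2.16 and the Sahiwal levels ran from -0.09 through 0.18 to 0.41, with overlap. It fell by 0.96 (difference -0.96, SE 0.36, adjusted p = 0.0470). The call ended without Ladakhi sample 1 or 5 or any 1 of the 6 Sahiwal samples, and without Ladakhi sample 5 the difference was -0.61. It also ended under cyclic loess (-0.51), quantile normalization (-0.76), with both taken relative to all measured probes (-0.92 and -0.94), and with outlier spots kept (-0.93).

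NDUFA4 was long listed with complex I and is now assigned to cytochrome c oxidase (complex IV). Its Ladakhi levels were 0.77, 0.65, 1.0, 0.94 and 1.20 and the Sahiwal levels ran from -1.39 through -0.53 to -0.32. Every Ladakhi sample was above every Sahiwal sample, and Sahiwal samples 4 and 5 were the lowest. NDUFA4 rose by 1.67 (SE 0.29, 3.18-fold, adjusted p = 0.000743). A probe identical to it over 53 bases rose by 1.23 (adjusted p = 0.0100). The printed A_73_P118486, which differs at 3 bases, was above background on 0 Ladakhi and 6 Sahiwal arrays. Its Sahiwal levels ran from -7.49 to -3.28, with a mean of -5.52. That mean lay below the mean Ladakhi floor of -3.61, so an equal Ladakhi level would go undetected. Fitted as it stood, this probe had a difference of 0.16 (SE 0.77, limma adjusted p = 0.882).

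**Figure D3:**
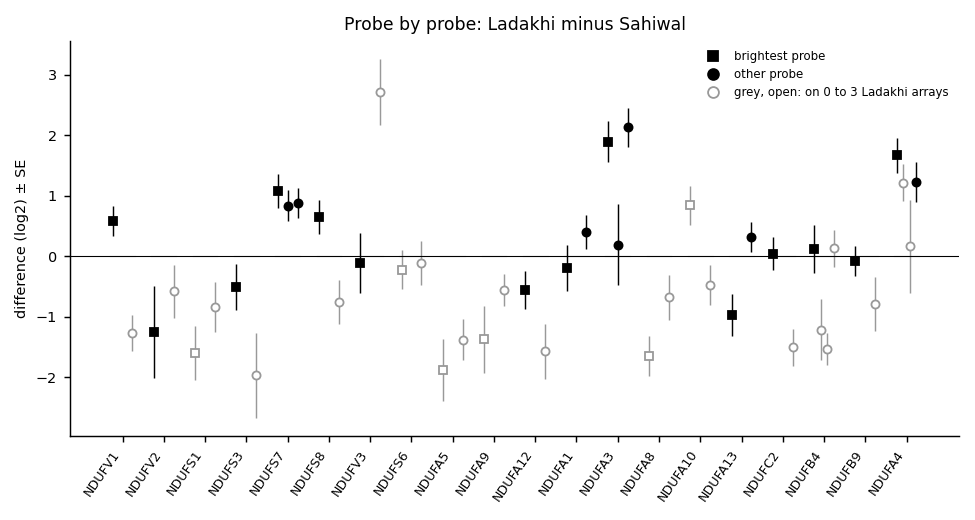
Difference between breeds (log2, vertical axis) with its standard error for every tested probe of each gene with 2 or more tested probes; squares are brightest probes, and grey open symbols were above background on 0 to 3 Ladakhi arrays. The 2 NDUFA13 probes lie on opposite sides of 0, at -0.97 and 0.32.

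The spread between samples was wider in Ladakhi than in Sahiwal for these genes. The median SD of the 26 measured genes was 0.755 in Ladakhi and 0.257 in Sahiwal, against 0.509 and 0.379 over all measured genes. The Ladakhi SD was the larger in 24 of 26 genes (92.3%), against 63.6% of all measured genes; no test was made of these shares. NDUFV2 had the widest Ladakhi SD, 2.26, and NDUFB9 the narrowest, 0.139. Ladakhi sample 4 was not above background in 5 of the 26 genes and sample 2 in 2, while the other 9 samples were above background in all 26. Fewer spots were above background on the Ladakhi arrays throughout, and the part of this in the wider spread was not tested.

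**Figure D4:**
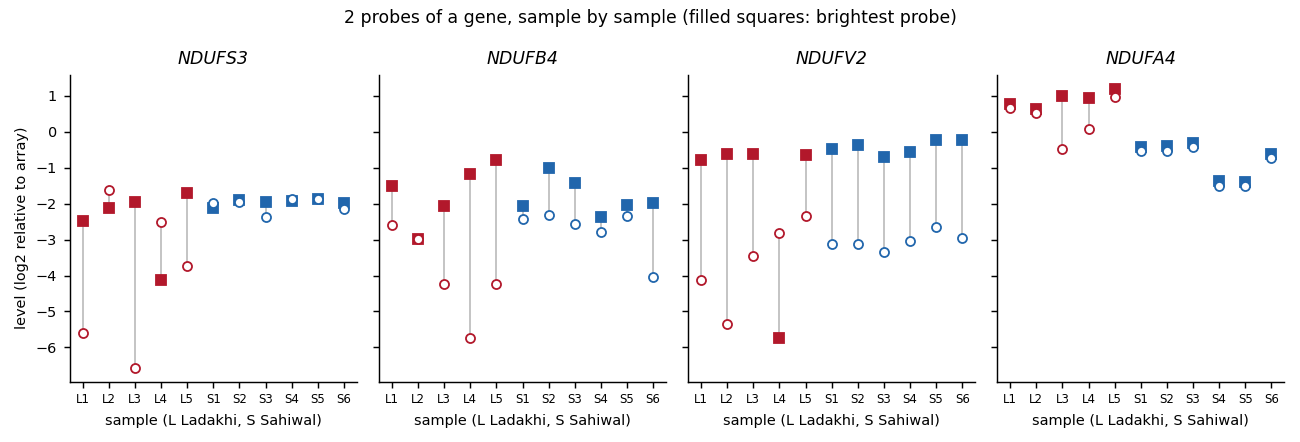
Levels (log2 relative to the array, vertical axis) of a pair of probes of NDUFS3, NDUFB4, NDUFV2 and NDUFA4 in each Ladakhi (L, red) and Sahiwal (S, blue) sample; filled squares are the brightest probe, open circles the second, and grey lines join the pair. The Sahiwal pairs of NDUFS3, NDUFV2 and NDUFA4 keep a near-constant gap, with SDs of 0.201, 0.134 and 0.0183, and their Ladakhi gaps vary more, with SDs of 2.57, 2.92 and 0.599; the NDUFB4 gap varies in both breeds, with SDs of 0.694 in Sahiwal and 1.82 in Ladakhi.

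Genes above background on 1 to 3 Ladakhi arrays were NDUFS1, NDUFS4, NDUFA5, NDUFA9, NDUFA8, NDUFA10, NDUFC1, NDUFB2 and NDUFB3. Fitted as they stood, NDUFS1 (-1.60), NDUFA5 (-1.88), NDUFA8 (-1.65) and NDUFC1 (-1.01) passed the test lower and NDUFA10 (0.84) higher, where 36.9% of such genes on the array were called (26.1% lower). After raising dim signals to the detection floor of their array, those 4 no longer passed. NDUFA9 then fell by 0.89 (difference -0.89, adjusted p = 0.0263), and NDUFA10 and NDUFB2 were at 0.98 and 0.83, where 51% were called (33.7% higher and 17.4% lower). The Sahiwal means of NDUFA10 and NDUFB2 lie below the mean Ladakhi floor of -3.61, so raising sets their direction. NDUFS6 had a Sahiwal mean of -4.52, also below that floor, and gets no fold.

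Other genes of the pathway were taken from lists of the same kind. The mitochondrially encoded subunits, the proton-pumping core of the membrane arm, had 5 of 6 genes on the array measured. The Sahiwal means of ND4L (-4.38) and ND2 (-5.14) lay below the mean Ladakhi floor, so these 2 could be measured only if higher, and their differences of 2.98 and 1.98 are given as values alone. The other 3 rose, ND1 by 2.11 (adjusted p = 0.00157), ND5 by 1.43 (adjusted p = 0.00131) and ND4 by 1.42 (adjusted p = 0.00921), where 18.1% of all measured genes were called higher. The difference from the nuclear-encoded genes was not tested.

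Complex I assembly factors, which build the enzyme and leave it, had 3 of 14 genes on the array measured and none called, with ACAD9 at 0.65 (Sahiwal mean -4.38, below the Ladakhi floor) and NDUFAF3 at 0.51. Nuclear-encoded subunits of complexes II to V had 33 of 39 measured, 6 higher and 6 lower, with a median of 0.13. Over all measured genes, 18.1% were called higher and 13.7% lower. SDHC, a membrane anchor of complex II, fell by 1.87 (difference -1.87, adjusted p = 0.000859), and COX6A1, a complex IV subunit, fell by 1.42 (difference -1.42, adjusted p = 0.00271). Regulators and markers of mitochondrial biogenesis had 5 of 16 measured and none called, with CS (citrate synthase) at -1.15 (adjusted p = 0.185) and TOMM20 (an import receptor) at -0.97 (adjusted p = 0.136).

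The GC content of the 26 brightest probes ran from 31.7% to 60%, and across these genes its correlation with the difference was r = 0.28, against 0.24 over 2569 measured genes. These are descriptions across genes that share the same 11 arrays.

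**Figure D5:**
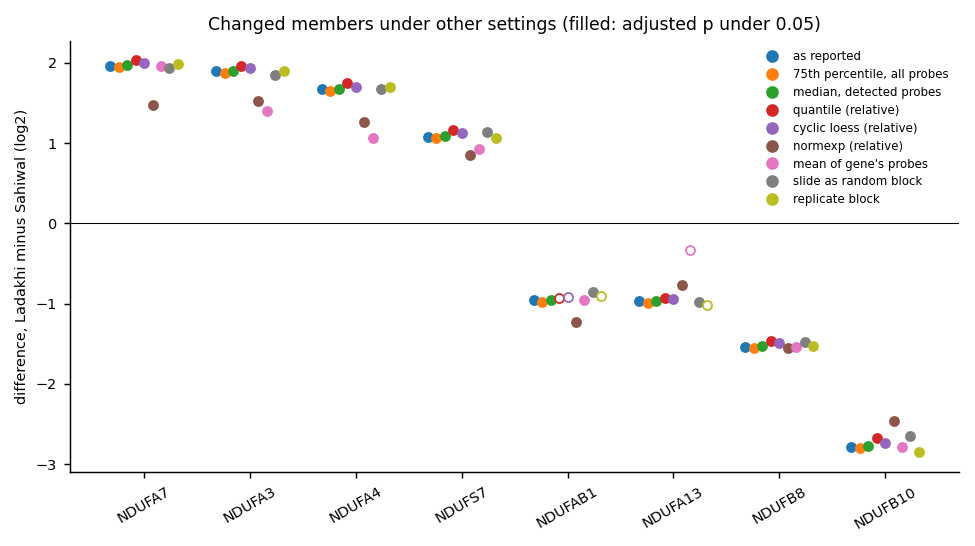
Difference between breeds (log2, vertical axis) of the 8 changed genes under 9 settings, one colour each, filled where the adjusted p is under 0.05; relative settings are taken against the median of all measured probes. NDUFA13 and NDUFAB1 have open points, and the 4 genes that rose stay filled in each setting shown.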

How the data were processed

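Per the file headers, the deposited scanner files hold Agilent Feature Extraction output (version 12.0.1.1 on an Agilent scanner for Ladakhi, 9.5.3.1 on a GenePix scanner for Sahiwal), with processed intensity on a linear scale, background-subtracted by that software. The deposited value table holds log2 values made by the authors, whose centring is not stated; its columns each followed another array of the same breed than their names say, so it served only as an alternative for the breed comparison.

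Outlier-flagged spots (294 over 11 arrays) were left out, spots of a probe averaged, and log2 processed intensity scaled to the 75th percentile of the 2705 probes detected on all arrays. Probes detected on 4 or more arrays of 1 breed were tested with limma 3.58.1 (R 4.3.3; lmFit, eBayes), two-sided, with Benjamini-Hochberg adjustment. The limma fit alone, without the scaling and detection steps, was run on simulated data with known changes. Precision is limited by 5 and 6 arrays. Each gene was represented by its brightest probe, the one with the highest mean of the 2 breed means.

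Sample values are given for up to 6 called genes in each direction, for called core subunits and for genes whose probes disagree; the other lists name their 2 largest differences. Further genes and probes described were picked after their values were seen. The members and lists were chosen with earlier results of these data known. Alternatives were other scalings, background correction, filters, slide and replicate blocks and each sample left out. Gene names are those of the array's design. Exon, intron and UTR positions of probes were not looked up.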

Additional observations from a re-analysis of the deposited data

Results flagged for a closer look

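The highest and lowest sample of each breed were checked for isolation from the rest (Dixon's criterion) in each of the 26 measured genes, 52 groups in all, of which chance flags about 5%. Each of the 3 that stood apart was a Ladakhi sample. The NDUFV2 level of Ladakhi sample 4 was -5.73, not well above background, where the next lowest sample was at -0.80. The NDUFS5 level of Ladakhi sample 2 was -2.41, above background, where the next was at -0.47. The NDUFB7 level of Ladakhi sample 2 was -3.42, not well above background, where the next was at -1.90. Of the array's probes above background on 4 or more Sahiwal arrays, 1339 fell short of it on a single Ladakhi array only. These numbered from 67 to 451 per Ladakhi array.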

How the results depend on the processing

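The number of genes that rose, 4 as reported, was 8 under quantile normalization (also relative to all measured probes), cyclic loess and normexp, and 7 with no filter, dim signals raised to the floor or slide as a random block. Counting each probe separately gave 8. The number that fell, also 4, was 1 under quantile normalization and cyclic loess, 2 when only genes measured on all 11 arrays were kept, and 7 with normexp relative to all measured probes. The median difference of -0.15 became 0.26 under cyclic loess, 0.19 under normexp, 0.0089 under quantile normalization, 0.044 with each probe counted or with all 11 arrays required, and -0.34 when the probes of a gene were averaged. The median relative to all measured genes, -0.16, became 0.061 with each probe counted and -0.39 with probes averaged. Leaving out 1 sample gave 4 to 5 higher and 2 to 5 lower genes, a median of -0.23 to -0.10 and a relative median of -0.24 to -0.11. No called gene changed direction under the alternatives run for it, and the causes were not tested. Same-numbered samples of the breeds did not deviate together (correlations -0.0714 to 0.0472), so they share only a number; with the replicate block 4 genes were higher and 2 lower, and NDUFA13 (-1.02, limma adjusted p = 0.0502) and NDUFAB1 (-0.91, adjusted p = 0.109) did not pass. The low detection on the Ladakhi arrays limits what can be said of 10 of the 36 genes.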
